A study of Mus musculus with 32 samples.

Results

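Chemokines are small secreted proteins that draw other cells in, and 6 of them are described here: Ccl1, Ccl3, Ccl4, Ccl5, Ccl22 and Xcl1, chosen by name as chemokines made by activated T cells, out of the 24302 genes listed in the count tables. All 6 had enough counts to be tested. The cells were mouse CD4+ T cells of the C57BL/6J strain, from the spleen and from lymph nodes (axillary and inguinal), and their poly(A) RNA was sequenced in 32 libraries. The 8 groups of 4 libraries combine 2 genotype labels, wild type (WT) and Nur77 knockout (KO), with 4 treatments. Those treatments are no stimulation, 12 h of stimulation through CD3 and CD28 by antibodies, the same stimulation with XCT790 at 10 µg/ml, and the same stimulation with CompA at 10 µg/ml. XCT790 is known as an inverse agonist of the nuclear receptor ERR-alpha, whereas CompA is a code name. Its target, the vehicle of the stimulated groups and the design of the Nur77 allele are not given in the sources used here. Whether the 4 libraries of 1 group stem from different animals is not stated, so the p-values measure the spread between these libraries, which may be technical.

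The libraries held 16020288 to 23687940 counts in genes. Nr4a1, the gene of Nur77, was not lower in the KO-labelled libraries: it averaged 166 ± 32.7 CPM (a gene's counts scaled to an equal library total; SD, n = 4) in stimulated WT libraries and 332 ± 128 in stimulated KO-labelled ones. Reads outside a deleted part would still count, so these levels do not check the label, and "KO-labelled" is written throughout. All 10 T cell markers were present in every group, with summed levels from 3747 to 5886 CPM over the WT libraries and from 3784 to 5211 CPM over the KO-labelled ones. Markers of myeloid and dendritic cells (22 genes in the files) were present too, at a summed 2343 to 3616 CPM in unstimulated WT libraries and 937 to 2185 CPM in unstimulated KO-labelled ones. After stimulation they remained at 539 to 1411 CPM in the WT libraries without inhibitor, with all 22 detected. In the other 5 stimulated groups they lay between 20.5 and 65 CPM, with Vsig4 at 0 in each of those groups and Cd209a at 0 in 2 of them.

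Chemokines bind receptors in the cell membrane that signal through inhibitory G proteins and steer a cell's movement. CCL1 is the ligand of CCR8, a receptor of activated and regulatory T cells. CCL3, CCL4 and CCL5 (known as MIP-1-alpha, MIP-1-beta and RANTES) draw in monocytes and effector T cells, and CCL3 and CCL5 bind CCR1. CCL22 is a ligand of CCR4, found on regulatory T cells and Th2 cells, and XCL1 is the ligand of XCR1 on cross-presenting dendritic cells. T cell receptor signals raise several of these genes within hours through factors such as NFAT and NF-kappaB, whereas Ccl5 is known as a late gene of T cells that memory cells already hold.

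In the GRCm38 (mm10) annotation 4 of the 6 genes lie on chromosome 11. Ccl1 spans chr11:82176657-82179812 on the minus strand, Ccl5 chr11:83525778-83530518 on the minus strand, Ccl3 chr11:83647844-83649355 on the minus strand and Ccl4 chr11:83662584-83664683 on the plus strand. Ccl22 spans chr8:94745590-94751699 on the plus strand and Xcl1 chr1:164931644-164935527 on the minus strand. Each has 3 exons. The RefSeq model of Ccl4 overlaps Ccl3 on the opposite strand, and how the counting treated strand is unknown here, so a split of reads between these 2 related genes is uncertain. The gene opposite Xcl1, Gm20743, had 0 counts over all libraries.

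RefSeq promoters of the same build (GRCm38.p6) were found for 4 of the 6 genes, and the bases before each start are shown because the 4 genes rose together on stimulation. Capitals mark the 5-base core that NFAT binds, GGAAA on either strand (TTTCC when read along the gene), and each line runs 5′ to 3′ along the gene up to the base before its start, with bases inside annotated transcripts left off, which leaves 250 bases of Ccl1 and Ccl3, 156 of Ccl22 and 245 of Xcl1. They come from chr11:82179813-82180062 for Ccl1, chr11:83649379-83649628 for Ccl3, chr8:94745434-94745589 for Ccl22 and chr1:164935528-164935772 for Xcl1.
Ccl1: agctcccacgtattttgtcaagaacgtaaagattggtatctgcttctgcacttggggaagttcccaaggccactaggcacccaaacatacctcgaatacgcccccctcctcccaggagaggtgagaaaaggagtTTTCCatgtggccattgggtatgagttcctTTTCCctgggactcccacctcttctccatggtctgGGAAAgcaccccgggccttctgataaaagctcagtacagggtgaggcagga
Ccl3: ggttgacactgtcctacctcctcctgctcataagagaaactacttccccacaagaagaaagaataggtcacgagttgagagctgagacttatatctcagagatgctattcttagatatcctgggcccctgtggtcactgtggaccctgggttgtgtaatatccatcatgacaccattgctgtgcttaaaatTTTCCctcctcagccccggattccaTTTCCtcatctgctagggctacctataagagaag
Ccl22: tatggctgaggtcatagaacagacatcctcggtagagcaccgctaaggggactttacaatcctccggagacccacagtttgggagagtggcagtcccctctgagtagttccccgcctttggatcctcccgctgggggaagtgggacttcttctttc
Xcl1: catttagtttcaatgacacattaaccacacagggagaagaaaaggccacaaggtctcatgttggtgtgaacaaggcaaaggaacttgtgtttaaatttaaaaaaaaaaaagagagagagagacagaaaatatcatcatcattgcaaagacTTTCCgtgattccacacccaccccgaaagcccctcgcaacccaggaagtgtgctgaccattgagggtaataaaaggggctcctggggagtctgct
Motifs were searched in the whole 250 bases before each RefSeq start, including those left off. The Ccl1 promoter held 3 such cores, which begin 116, 86 and 51 bases before the start. Ccl3 held 2, from bases 59 and 34, Xcl1 held 1, from base 100 (the line shown ends 5 bases before that start), and Ccl22 held none. Of all 32817 RefSeq mouse promoters, 55.6% hold the core within the same 250 bases, so its presence is common. The AP-1 site, TGACTCA or TGAGTCA, occurs in 4.46% of promoters and the NF-kappaB site, searched on both strands, in 3.9%, and neither was found in these 4 windows.

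Stimulation raised 5 of the 6 chemokine genes in both genotypes and lowered Ccl5 in both. Ccl22 had the largest rise among them and Xcl1 or Ccl3 the smallest. Of all 12332 tested genes, the share that rose was 34.5% in WT and 39.3% in KO-labelled libraries, and 38.8% and 42.4% fell (edgeR's quasi-likelihood test, adjusted p under 0.05). The median log2 change was 5.15 over the 6 genes against -0.11 over all genes in WT, and 4.95 against -0.07 in KO-labelled libraries. The members were chosen for their induction, with earlier results of these data known, so these contrasts with all genes are no test. The groups of all 6 genes were fully separated in both genotypes. The share of all genes separated in this way was not counted, here or in the comparisons below.

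Ccl1, the CCR8 ligand, was at 0.255, 0.406, 0.278 and 0.25 CPM in unstimulated WT replicates 1 to 4 and at 18.3, 21.1, 29.3 and 20.4 CPM in stimulated ones. The KO-labelled libraries had 0.313, 0.702, 0.495 and 0.741 CPM without and 9.55, 13.5, 21.8 and 16.8 CPM with stimulation. Ccl1 was thus close to absent in every unstimulated library and present in every stimulated one. Its log2 change was 6.19 (SE 0.35), a fold of 73.2, in WT (edgeR adjusted p = 4.5e-15). In KO-labelled libraries it was 4.77 (SE 0.31), a fold of 27.4 (edgeR adjusted p = 4.8e-14).

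Ccl3 was at 0.637, 2.29, 1.39 and 0.96 CPM in unstimulated WT libraries and at 32.3, 13.4, 37.6 and 35.9 CPM in stimulated ones. KO-labelled libraries had 5.86, 3.29, 4.95 and 4.54 CPM before and 48.4, 102, 74.6 and 57.8 CPM after stimulation. Replicate 2 was the lowest stimulated WT library and the highest stimulated KO-labelled one, which are different libraries that share only the number. Ccl3 rose 22.3-fold in WT (log2 4.48, SE 0.44, edgeR adjusted p = 6.5e-10). It rose 15.1-fold in KO-labelled libraries (log2 3.92, SE 0.39, edgeR adjusted p = 3.7e-10).

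Ccl4, its neighbour, was between 1.52 and 1.97 CPM in unstimulated WT libraries and at 104, 36.2, 129 and 107 CPM in stimulated ones. The KO-labelled libraries had 5.31, 4.13, 6.6 and 6.24 CPM unstimulated and 137, 404, 125 and 111 CPM stimulated. As for Ccl3, replicate 2 stood lowest in stimulated WT and highest in stimulated KO-labelled libraries. The rise was 56.4-fold in WT (log2 5.82, SE 0.58, edgeR adjusted p = 7.0e-10). In KO-labelled libraries it was 34.8-fold (log2 5.12, SE 0.52, edgeR adjusted p = 5.3e-10), and without replicate 2 in each KO-labelled group the log2 change was 4.36 (edgeR adjusted p = 6.4e-10). Counts of Ccl4 per count of Ccl3 were 3.09 ± 0.313 in stimulated WT and 2.6 ± 1.04 in stimulated KO-labelled libraries (SD, n = 4).

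Ccl5 went the other way. Unstimulated WT libraries had 30.5, 45, 46.3 and 23.2 CPM, and stimulated ones 6.38, 18.4, 15.4 and 6.09 CPM. In KO-labelled libraries Ccl5 was at 57.5, 73.1, 95.6 and 61.4 CPM without and at 6.65, 9.94, 6.1 and 3.71 CPM with stimulation. Every stimulated library lay below every unstimulated one of its genotype, so the name "induced" did not hold for Ccl5 at 12 h. It was 3.13-fold lower in WT (log2 -1.65, SE 0.33, edgeR adjusted p = 6.2e-05) and 11-fold lower in KO-labelled libraries (log2 -3.46, SE 0.35, edgeR adjusted p = 4.4e-10). In these bulk libraries fewer cells that hold Ccl5 RNA and less of it per cell cannot be told apart. Of 14 markers of CD8 and NK cells, which are rich in Ccl5 RNA, 12 were tested: 7 fell, 1 rose and 4 were not called in WT, and 6 fell, 1 rose and 5 were not called in KO-labelled libraries. Of all tested genes 38.8% fell in WT and 42.4% in KO-labelled libraries. The sum of the 14 markers was 141 to 198 CPM before and 84.6 to 104 CPM after stimulation in WT, and 101 to 168 and 68.7 to 92.1 CPM in KO-labelled libraries. Among them Prf1 averaged 48 CPM before and 14.2 CPM after stimulation in WT and Klrb1c 25.6 and 8.19 CPM, whereas Cd8a averaged 6.06 and 6.37 CPM, Eomes 7.16 and 11.8 CPM and Cd160 12.2 and 19.7 CPM, and Klra8 was at 0. Their part in the fall was not tested.

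Ccl22, the CCR4 ligand, was between 0.382 and 0.711 CPM in unstimulated WT libraries and at 80.6, 144, 94.5 and 53.9 CPM in stimulated ones. KO-labelled libraries had 0.33 to 1 CPM unstimulated and 114, 47.1, 170 and 220 CPM stimulated. Replicate 2 was here the highest stimulated WT library and the lowest KO-labelled one, the reverse of Ccl3 and Ccl4. Ccl22 rose 183-fold in WT (log2 7.51, SE 0.76, edgeR adjusted p = 8.8e-10) and 203-fold in KO-labelled libraries (log2 7.67, SE 0.72, edgeR adjusted p = 1.0e-10). Ccl22 is also a product of dendritic cells. The summed myeloid and dendritic markers were lower after stimulation than before it, as given above, but among the stimulated WT libraries replicate 2 had both the highest Ccl22 and the highest sum (1411 CPM). In stimulated KO-labelled libraries replicate 2 had the lowest Ccl22 and the highest sum (58.6 CPM). Of the 21 markers on that list that were tested, 20 fell and 1 rose with stimulation in WT, against 38.8% and 34.5% of all genes. In KO-labelled libraries 20 fell and 1 was not called, against 42.4% of all genes lower. Zbtb46, a dendritic cell marker, averaged 1.93 CPM before and 2.82 CPM after stimulation in WT, and 3.15 and 3.68 CPM in KO-labelled libraries. The part of myeloid and dendritic cells in the Ccl22 levels was not tested.

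Xcl1, or lymphotactin, was at 4.33, 3.45, 3.94 and 2.67 CPM in unstimulated WT libraries and at 59.5, 24.9, 89.8 and 64.7 CPM in stimulated ones. KO-labelled libraries had 1.91, 2.06, 2.93 and 2.09 CPM before and 58.3, 220, 54.3 and 53.6 CPM after. The libraries numbered replicate 2 were again lowest in stimulated WT and highest in stimulated KO-labelled cells. Xcl1 rose 16.7-fold in WT (log2 4.06, SE 0.61, edgeR adjusted p = 1.2e-06). It rose 42.7-fold in KO-labelled libraries (log2 5.41, SE 0.64, edgeR adjusted p = 1.1e-08), and by 4.58 on the log2 scale without replicate 2 in each KO-labelled group (edgeR adjusted p = 6.7e-10).

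**Figure D1:**
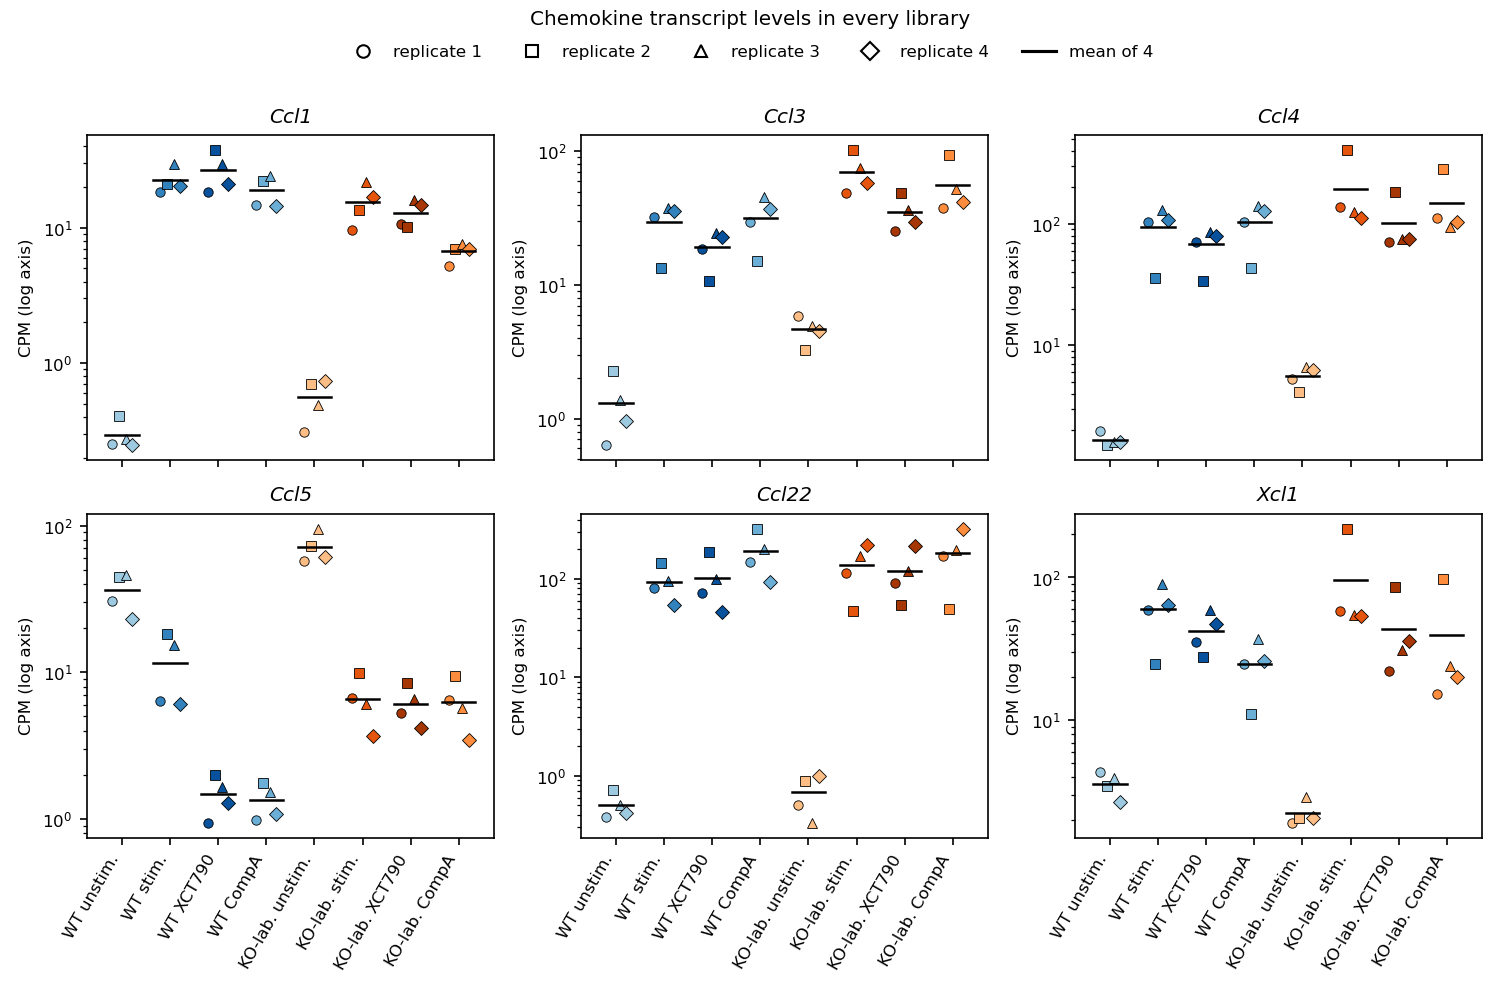
Level of each of the 6 chemokine genes in every library (CPM, log axis) by genotype and treatment; points are the 4 libraries of a group and bars the group means. Ccl5 sits highest in the unstimulated groups, at 23.2 to 95.6 CPM, and the other 5 genes sit highest in the stimulated ones.

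Replicate 2 of the KO-labelled cells stood apart after stimulation in all 3 treatments. Ccl4 was 3.25 times the mean of the other 3 libraries with stimulation alone, 2.48 times with XCT790 and 2.73 times with CompA, and Xcl1 was 3.97, 2.87 and 4.96 times. Ccl22 in the same libraries was 0.28, 0.376 and 0.216 times the mean of the others. Without that replicate, stimulated KO-labelled libraries averaged 124 ± 13.2 CPM of Ccl4 and 55.4 ± 2.51 CPM of Xcl1 (SD, n = 3). The same replicate had the highest summed B cell markers (12 of 12 detected): 837 CPM unstimulated against 113 to 186 CPM in the other 3, and 279 CPM stimulated against 33.9 to 59 CPM. Its summed CD8 and NK cell markers were highest too, at 168 CPM unstimulated against 101 to 109 CPM, and 92.1 CPM stimulated against 68.7 to 75.5 CPM. Summed myeloid and dendritic markers were highest in it after stimulation (58.6 CPM against 34.9 to 42.5 CPM), but not before (1589 CPM, in a group from 937 to 2185 CPM). The part of these cells in the chemokine levels was not tested.

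The make-up of the group turned over with stimulation. Levels of different genes are compared here per kilobase of exonic length (CPM per kb). Summed over the 6 genes, the level was 80.1 ± 22.5 CPM per kb in unstimulated and 403 ± 116 in stimulated WT libraries (SD, n = 4), and 155 ± 33.4 and 675 ± 371 in KO-labelled ones. Ccl5 made up 84.5% ± 2.93 of this sum in unstimulated WT libraries and 86.7% ± 2.71 in unstimulated KO-labelled ones. After stimulation its share was 6.1% ± 4.92 in WT and 1.96% ± 0.595 in KO-labelled libraries. Ccl4 then had the largest share on average, 34.1% ± 8.86 in WT and 41.3% ± 7.13 in KO-labelled libraries, followed by Xcl1 with 27.2% ± 6.06 and 24.8% ± 6.45. Ccl22, with the largest fold change, held 12% ± 8.74 and 12% ± 7.88.

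**Figure D2:**
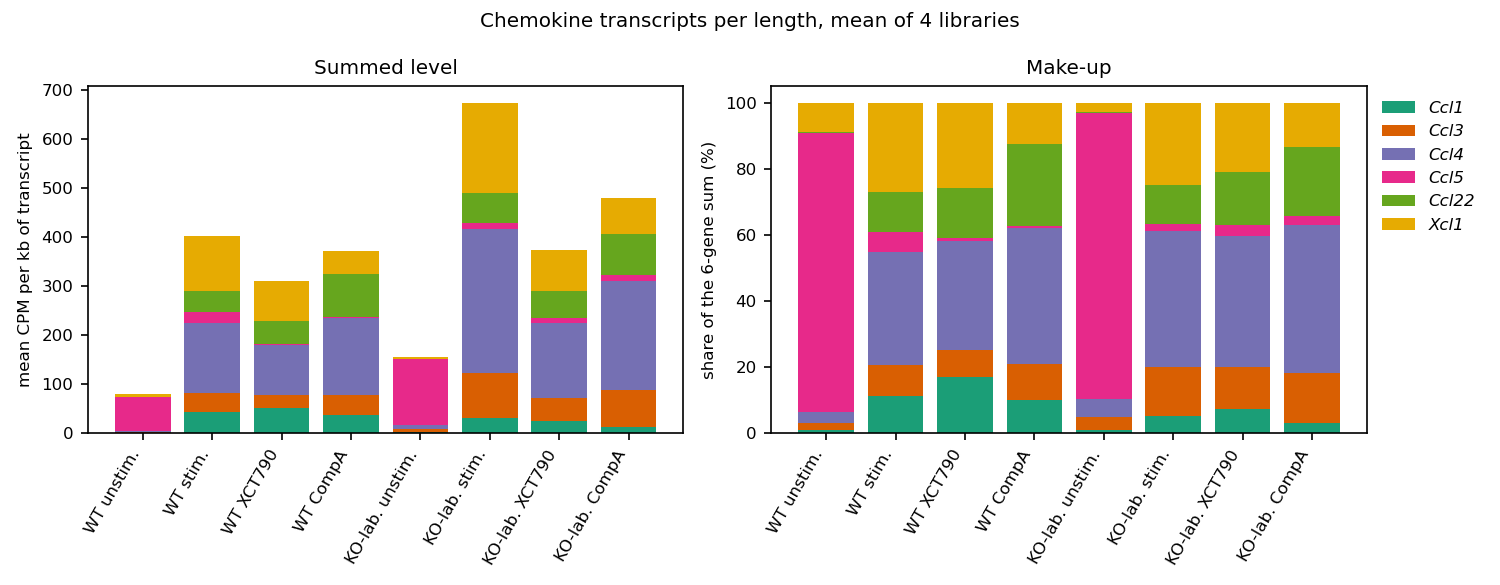
Summed level of the 6 chemokine genes (left, CPM per kb of exonic length) and the share of each in that sum (right, percent), as means of 4 libraries in the 8 groups. In the right panel Ccl5 fills most of both unstimulated bars, at 84.5% and 86.7%, and Ccl4 and Xcl1 together fill more than any other pair in the stimulated groups without inhibitor.

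With either inhibitor present, the 6 genes differed from unstimulated cells in the same directions as with stimulation alone, 5 higher and Ccl5 lower, in both genotypes. Of all tested genes, 37.7% were higher and 41.3% lower with XCT790 in WT, and 37.2% and 41.1% with CompA. In KO-labelled libraries 39.6% were higher and 39.4% lower with XCT790, and 39.2% and 39.3% with CompA. Ccl22 was 199-fold above unstimulated WT libraries with XCT790 and 377-fold with CompA. Against stimulation alone few of the genes passed the test: Ccl5 fell with both compounds in WT, and Ccl1 fell with CompA in KO-labelled cells.

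Ccl5 in stimulated WT cells was at 0.937, 2, 1.65 and 1.29 CPM with XCT790 and at 0.992, 1.77, 1.52 and 1.08 CPM with CompA. All 8 of these libraries lay below the 4 stimulated without inhibitor, which start at 6.09 CPM. The level was 7.88-fold lower with XCT790 (log2 -2.98, SE 0.39, edgeR adjusted p = 7.9e-07) and 8.61-fold lower with CompA (log2 -3.11, SE 0.40, edgeR adjusted p = 5.2e-07). Ccl5 was 1 of 6 genes called with each compound, against 20.2% of all genes lower with XCT790 and 21.3% with CompA, and 28.6% and 32.8% in either direction. In KO-labelled cells Ccl5 was at 3.71 to 9.94 CPM with stimulation alone, 4.19 to 8.47 CPM with XCT790 and 3.45 to 9.39 CPM with CompA, and the groups overlapped. Its log2 change there was -0.10 (95% interval -0.80 to 0.61) with XCT790 and -0.07 (-0.78 to 0.64) with CompA.

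The stimulated WT libraries without inhibitor also held RNA of genes that mark the unstimulated libraries. Over 78 genes chosen for being at 2% or less of the unstimulated level in the other 5 stimulated groups, these 4 libraries had 0.203, 0.349, 0.288 and 0.195 of the level in the unstimulated library of their run. A run is a set of 4 libraries with consecutive numbers, 1 of each treatment. For Ccl5 alone the ratio was 0.215, 0.366, 0.309 and 0.245, so the 2 measures lay side by side in each of the 4 libraries. In the other 5 stimulated groups Ccl5 was at 0.0297 to 0.106 of its unstimulated level. The summed myeloid and dendritic markers were higher in these 4 libraries too (539 to 1411 CPM) than in the other stimulated groups (20.5 to 65 CPM), and what the remaining RNA comes from was not tested. With the share estimated from the 78 genes subtracted, using the mean unstimulated WT profile, Ccl5 in stimulated WT libraries was 2.46 ± 4.2 CPM in place of 11.6 ± 6.28 (SD, n = 4). With the unstimulated library of the same run it was 1.26 ± 0.547 CPM. The falls with the inhibitors were then -0.82 (edgeR adjusted p = 0.555) for XCT790 and -0.96 (adjusted p = 0.366) for CompA on the log2 scale, or 0.21 (adjusted p = 0.84) and 0.07 (adjusted p = 0.93) by run. The subtraction applies 1 share to every gene and can only lower Ccl5 in these 4 libraries. It therefore shrinks the falls with the inhibitors and deepens the fall with stimulation, to -3.82 or -4.85 by run, by its construction. The subtraction also lowers the totals of these libraries, so genes that lose few counts rise. By the mean profile Ccl1 went from 22.2 to 31.7 CPM and Ccl3 from 29.8 to 39.7 CPM, and Ccl4, Ccl22 and Xcl1 went up too. Calls of members gained or lost by the subtraction are thus no separate evidence.

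**Figure D3:**
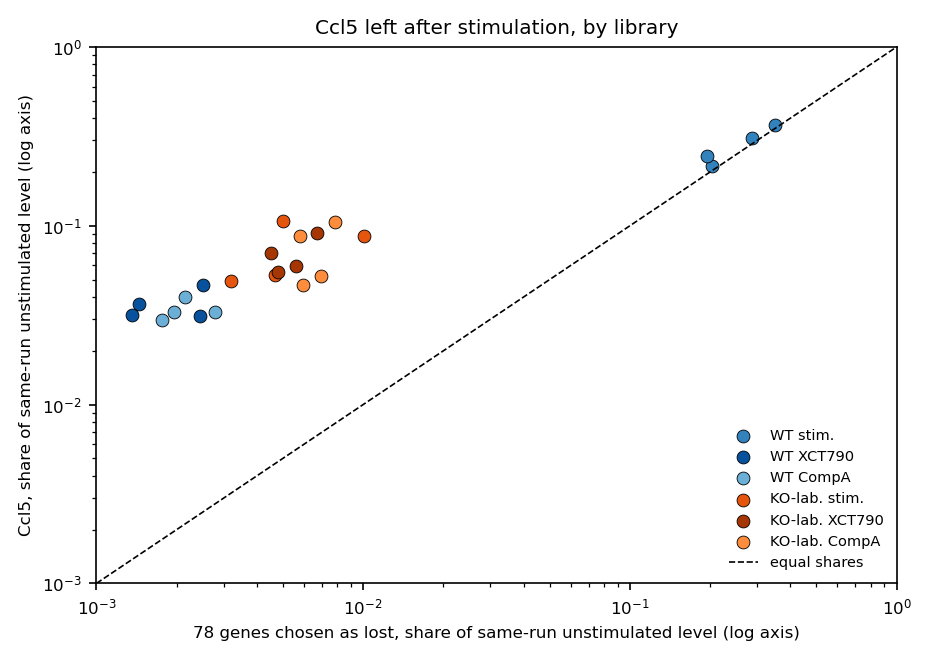
Ratio of each stimulated library's level to that before stimulation, for Ccl5 and for the 78 genes chosen as lost in the other groups, taken against the unstimulated library of the same run (log axes). In the 4 WT libraries without inhibitor the 2 ratios lie side by side, from 0.195 to 0.366. The low values of the 78 genes in the other groups follow from how these genes were chosen.

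Ccl1 in KO-labelled cells was at 5.17, 7.01, 7.55 and 6.95 CPM with CompA, and at 10.6, 10.1, 16.1 and 14.7 CPM with XCT790. All 4 CompA libraries lay below the 4 stimulated without inhibitor and below the 4 with XCT790. Ccl1 was 2.31-fold lower with CompA than with stimulation alone (log2 -1.21, SE 0.25, edgeR adjusted p = 0.00106), and was 1 of 6 genes called, against 9.11% of all genes lower and 19.3% in either direction. With XCT790 its log2 change was -0.26 (95% interval -0.75 to 0.23). In WT cells Ccl1 was at 14.6, 22, 24.2 and 14.4 CPM with CompA and at 18.2, 37.2, 29.5 and 21.1 CPM with XCT790, which overlap the 18.3 to 29.3 CPM of stimulation alone. The changes were -0.24 (-0.73 to 0.24) with CompA and 0.25 (-0.23 to 0.73) with XCT790. With the unstimulated share subtracted from the stimulated WT libraries, which raises Ccl1 there by construction, the CompA change was -0.76 (edgeR adjusted p = 0.0283).

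Xcl1 had lower values with CompA in every run of both genotypes, although the groups overlapped. In WT it was at 24.9, 11, 37.1 and 26.2 CPM with CompA, 0.405 to 0.441 times the stimulated library of the same run. In KO-labelled cells it was at 15.3, 98, 24 and 20 CPM, 0.263 to 0.446 times. The test of group means gave a log2 difference of -1.27 (95% interval -2.34 to -0.20) in WT, with an edgeR adjusted p of 0.0629, and of -1.30 (-2.36 to -0.23) in KO-labelled cells. With the run as a block Xcl1 fell with CompA in WT by 1.33 on the log2 scale (edgeR adjusted p = 1.7e-04) and in KO-labelled cells by 1.41 (edgeR adjusted p = 7.8e-04), and without KO-labelled replicate 2 by 1.48 (adjusted p = 0.00648). Leaving out single libraries gave calls too: -2.27 in KO-labelled cells without CompA replicate 2 (edgeR adjusted p = 0.00262), and -1.54 in WT without stimulated replicate 2 (adjusted p = 0.034). With XCT790 Xcl1 was at 35.6, 27.7, 59.2 and 47 CPM in WT and 22.2, 85.2, 30.9 and 35.8 CPM in KO-labelled cells.

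Ccl22 showed higher values with CompA in every run: 149, 325, 203 and 94.1 CPM in WT, 1.75 to 2.26 times the stimulated library of the run, and 172, 49.5, 196 and 320 CPM in KO-labelled cells, 1.05 to 1.52 times. The libraries of the groups overlapped. The log2 difference was 1.05 (95% interval 0.05 to 2.04, edgeR adjusted p = 0.1) in WT and 0.42 (-0.57 to 1.40) in KO-labelled cells. With the run as a block Ccl22 was called in WT, at 0.92 (edgeR adjusted p = 9.9e-06), and in KO-labelled cells it was at 0.35 (adjusted p = 0.167). With XCT790 it was 0.13 (-0.86 to 1.12) and -0.19 (-1.18 to 0.79), from 46.4 to 189 CPM in WT and 53.8 to 218 CPM in KO-labelled cells.

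Ccl3 and Ccl4 were lower with XCT790 in every run, again with overlapping groups. Ccl3 was at 18.6, 10.7, 24.7 and 23 CPM in WT and at 25.5, 49, 36.3 and 29.7 CPM in KO-labelled cells, where each library was 0.481 to 0.527 times its stimulated partner. Ccl4 was at 71.5, 33.7, 86.1 and 80.2 CPM in WT and 71, 183, 74.5 and 75.1 CPM in KO-labelled cells. In KO-labelled cells 0 of 6 genes passed edgeR's test with XCT790, against 11.3% of all genes. At an unadjusted p under 0.05 there were 3 (Ccl3, Ccl4 and Xcl1), and DESeq2 called 1, Ccl3. The log2 differences were -1.01 (95% interval -1.71 to -0.30, edgeR adjusted p = 0.0549) for Ccl3, -0.94 (adjusted p = 0.164) for Ccl4 and -1.15 (adjusted p = 0.157) for Xcl1. With the run as a block they were -1.02 (edgeR adjusted p = 0.00193), -0.89 (adjusted p = 0.0139) and -1.07 (adjusted p = 0.00681), and all 3 passed. Over all genes the block called 2788 in place of 1390. Without XCT790 replicate 2 all 3 passed as well, at -1.20 (edgeR adjusted p = 0.0399), -1.39 (adjusted p = 0.048) and -1.69 (adjusted p = 0.0474), and Ccl3 passed without stimulated replicate 1 at -1.17 (adjusted p = 0.0477). In WT the differences were -0.63 (-1.34 to 0.09) for Ccl3 and -0.47 (-1.35 to 0.41) for Ccl4, which the block called at -0.48 (edgeR adjusted p = 0.0218). With CompA the WT differences were 0.10 (-0.61 to 0.80) and 0.13 (-0.75 to 1.01), from 15 to 45.9 CPM of Ccl3 and 43.5 to 140 CPM of Ccl4. In KO-labelled cells they were -0.33 (-1.02 to 0.37) and -0.39 (-1.27 to 0.48), from 37.7 to 93.5 and 94.8 to 282 CPM. There both genes were lower with CompA in every run as well, at 0.704 to 0.919 times the stimulated library for Ccl3 and 0.697 to 0.935 times for Ccl4.

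The 2 compounds were compared with each other at the same dose and time in 6 genes and 2 genotypes, with p-values adjusted over all genes tested. In KO-labelled cells Ccl1 was 1.93-fold higher with XCT790 than with CompA (log2 0.95, SE 0.25, edgeR adjusted p = 0.0281), 1 of 6 genes against 1.97% of all genes higher and 3.24% in either direction. This call ended when 1 of 5 libraries was left out, CompA replicate 1, 2 or 4 or XCT790 replicate 3 or 4 (edgeR adjusted p from 0.0526 to 0.116). In WT 0 of 6 genes passed edgeR's test, against 9.41% of all genes; at an unadjusted p under 0.05 there were 2, Ccl1 and Ccl3, and DESeq2 called none. With the run as a block 4 passed: Ccl1 0.49 higher with XCT790 (edgeR adjusted p = 0.022), Xcl1 0.84 higher (adjusted p = 0.0157), Ccl4 -0.56 (adjusted p = 0.0225) and Ccl22 -0.95 (adjusted p = 7.3e-05). Over all genes the block called 1694 in place of 1161. The intervals without the block were 0.01 to 0.98 for Ccl1, -0.30 to 1.84 for Xcl1, -1.49 to 0.28 for Ccl4 and -1.92 to 0.08 for Ccl22.

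**Figure D4:**
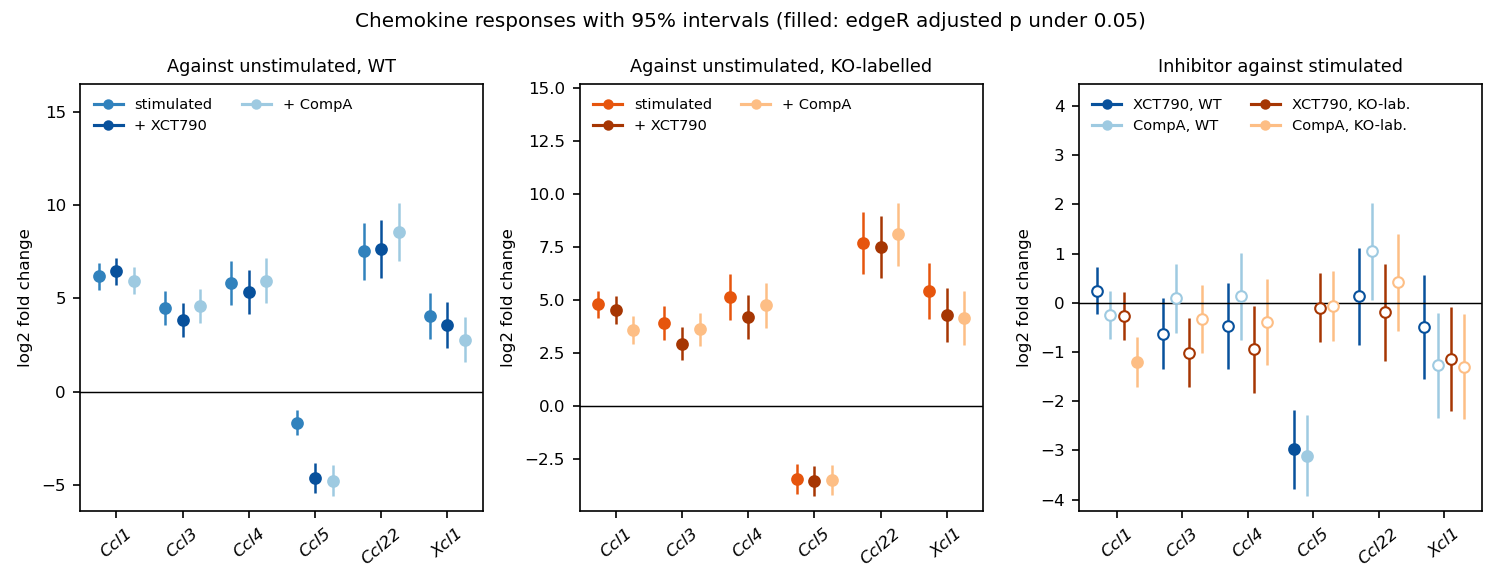
Log2 fold change of each chemokine gene, with its 95% interval, for each stimulated group against unstimulated cells (left and middle panels) and for each inhibitor against stimulation alone (right panel); filled points have an edgeR adjusted p under 0.05. The 5 rising genes and Ccl5 keep their direction in all 6 stimulated groups, and in the right panel only Ccl5 in WT and Ccl1 with CompA in KO-labelled cells are filled.

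Between genotypes, library numbers 1 to 16 are WT and 25 to 40 KO-labelled, so genotype and the order of the libraries cannot be told apart. Without stimulation 3 of the 6 genes, Ccl3, Ccl4 and Ccl5, were higher in KO-labelled libraries and none was lower, against 12.5% of all genes higher and 36.1% in either direction. For each of the 3, every KO-labelled library lay above every WT library. Ccl3 was 3.5-fold higher (log2 1.81, SE 0.46, edgeR adjusted p = 0.00388), from 0.637 to 2.29 CPM in WT to 3.29 to 5.86 CPM. Ccl4 was 3.34-fold higher (log2 1.74, SE 0.58, edgeR adjusted p = 0.0222) and Ccl5 1.98-fold higher (log2 0.99, SE 0.31, edgeR adjusted p = 0.0166). The Ccl4 call ended without WT replicate 1 or KO-labelled replicate 3 (edgeR adjusted p = 0.0517 for each). That of Ccl5 ended without WT replicate 1 (adjusted p = 0.0506) or 4 (edgeR adjusted p = 0.0554) or KO-labelled replicate 3 (adjusted p = 0.0686). Summed myeloid markers were lower in KO-labelled libraries (1499 ± 529 against 2930 ± 551 CPM; SD, n = 4), and so were CD8 and NK cell markers (122 ± 30.9 against 170 ± 23.2 CPM), while single markers such as Cd8a (12.2 against 6.06 CPM) and Eomes (16 against 7.16 CPM) were at higher means in KO-labelled libraries. Their part in the differences was not tested. The log2 differences of the other members were 0.89 (95% interval -0.06 to 1.85) for Ccl1, 0.41 (-1.77 to 2.59) for Ccl22 and -0.66 (SE 0.65) for Xcl1.

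After stimulation Ccl3 was the 1 gene of 6 that differed, against 25.2% of all genes in either direction and 7.31% higher. It was 2.37-fold higher in KO-labelled libraries, 48.4 to 102 CPM against 13.4 to 37.6 CPM in WT, without overlap (log2 1.24, SE 0.35, edgeR adjusted p = 0.00811). With the unstimulated share subtracted from the WT libraries the difference was 0.81 (edgeR adjusted p = 0.16), or 0.79 by run (adjusted p = 0.159). The subtraction raises Ccl3 and Ccl1 in the WT libraries by construction, so it moves their genotype differences downwards. Ccl4 differed by 1.04 (95% interval 0.16 to 1.93, edgeR adjusted p = 0.0762), and by 0.40 without KO-labelled replicate 2. For Xcl1 the difference of 0.69 (-0.36 to 1.73) turned to -0.11 without that replicate. Ccl1 differed by -0.53 (-1.01 to -0.04, edgeR adjusted p = 0.101), and by -1.05 (adjusted p = 0.0112) after the subtraction. Leaving out KO-labelled replicate 3 gave -0.76 for Ccl1 (edgeR adjusted p = 0.0252). For Ccl5 the difference of -0.82 (edgeR adjusted p = 0.0724) became -1.03 without WT replicate 1 (adjusted p = 0.0239) or 4 (adjusted p = 0.0257) and -1.04 without KO-labelled replicate 2 (adjusted p = 0.0318). With the subtraction it changed sign, to 1.33 (edgeR adjusted p = 0.237) by the mean profile and to 2.36 (adjusted p = 1.2e-04) by run. The subtraction can only lower Ccl5 in the WT libraries, so it pushes this difference upwards by construction. Its version by run was added after seeing the data.

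With the inhibitors, Ccl1 was lower and Ccl5 higher in KO-labelled cells, 2 of 6 genes with each compound. Of all genes, 7.4% were higher and 2.11% lower in KO-labelled cells with XCT790, and 5.82% and 1.88% with CompA. Ccl1 was 2.06-fold lower with XCT790 (log2 -1.04, SE 0.24, edgeR adjusted p = 0.00495) and 2.82-fold lower with CompA (log2 -1.49, SE 0.25, edgeR adjusted p = 1.9e-04). Its 4 KO-labelled libraries lay below the 4 WT libraries with either compound. Ccl5 was 4.16-fold higher with XCT790 (log2 2.06, SE 0.40, edgeR adjusted p = 0.00114) and 4.64-fold higher with CompA (log2 2.21, SE 0.41, edgeR adjusted p = 6.9e-04), again without overlap. Over both compounds its libraries span 3.45 to 9.39 CPM in KO-labelled and 0.937 to 2 CPM in WT cells. In these groups the summed myeloid markers were 20.5 to 28.8 CPM in WT and 26 to 65 CPM in KO-labelled libraries, and lay mostly higher in KO-labelled cells. Summed CD8 and NK cell markers were 40.2 to 47.1 CPM in WT and 47.2 to 71.1 CPM in KO-labelled libraries with XCT790. With CompA they were 55.8 to 65.1 and 61.9 to 81 CPM. Of the 12 tested, 2 were higher and 1 lower in KO-labelled cells with XCT790, and 0 and 1 with CompA. The part of these cells in the Ccl5 difference was not tested. Ccl3 with XCT790 lay without overlap as well, 25.5 to 49 against 10.7 to 24.7 CPM, with a log2 difference of 0.86 (95% interval 0.15 to 1.58).

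**Figure D5:**
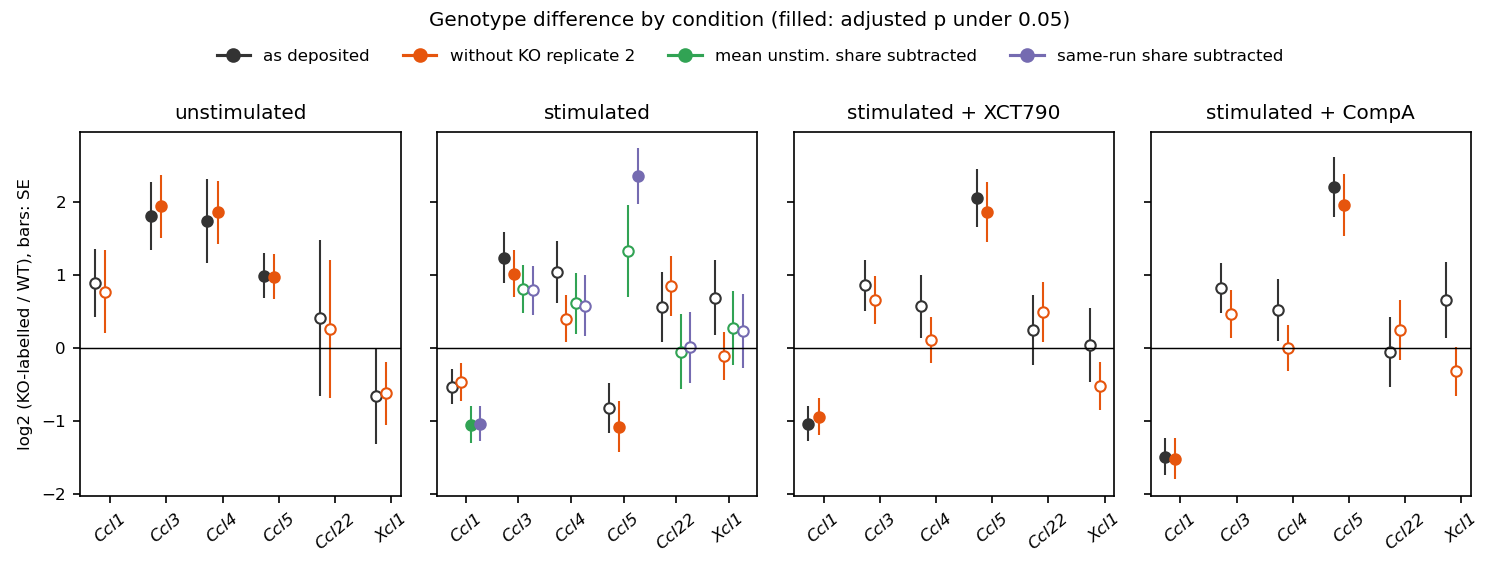
Log2 difference between KO-labelled and WT libraries for each chemokine gene in the 4 treatments, with its SE, as deposited (black), without KO-labelled replicate 2 (orange) and after subtraction of the unstimulated share by mean profile (green) or by run (purple); filled points have an edgeR adjusted p under 0.05. As deposited, Ccl3 lies above 0 in all 4 treatments, Ccl1 lies below 0 in the 3 stimulated ones, and Ccl5 is at -0.82 with stimulation alone and at 2.06 and 2.21 with the inhibitors.

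The difference between the genotypes' responses was tested by interaction terms. For stimulation 2 of 6 genes passed, both negative, against 16.5% of all genes negative and 33.7% in either direction: Ccl1, whose rise was smaller in KO-labelled cells, at -1.42 on the log2 scale (SE 0.52, edgeR adjusted p = 0.0369), and Ccl5, whose fall was larger, at -1.81 (SE 0.46, edgeR adjusted p = 0.00479). The Ccl1 term lost its call when 1 of 9 of the 16 libraries was left out, WT unstimulated replicates 1, 3 and 4, WT stimulated replicates 2 and 3, KO-labelled unstimulated replicates 2 and 4 and KO-labelled stimulated replicates 1 and 2 (edgeR adjusted p from 0.0509 to 0.0841). Without replicate 2 in each KO-labelled group the Ccl1 term was not called either, and Ccl4 then passed at -1.46 (edgeR adjusted p = 0.0472). For Ccl5 the term was 0.33 (edgeR adjusted p = 0.799) after the subtraction. For XCT790 only Ccl5 passed, against 17.5% of all genes in that direction and 24.7% in either, at 2.88 (SE 0.53, edgeR adjusted p = 1.7e-04). For CompA Ccl5 passed at 3.04 (SE 0.53, edgeR adjusted p = 1.1e-04) and Ccl1 at -0.97 (SE 0.34, edgeR adjusted p = 0.0411), against 15.6% of all genes positive and 5.99% negative. With the subtraction neither Ccl5 term passed, at 0.73 and 0.89 (edgeR adjusted p = 1 for both). All these interaction terms include the stimulated WT libraries, so the subtraction moves them by construction. The Ccl1 term for CompA was then -0.44 (edgeR adjusted p = 1), and it lost its call without any 1 of 10 libraries, WT stimulated replicates 1, 2 and 4, WT CompA replicates 2 and 3, KO-labelled stimulated replicates 3 and 4 and KO-labelled CompA replicates 1, 2 and 4 (edgeR adjusted p from 0.0624 to 0.11).

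Among the receptors of these chemokines, Ccr8 and Ccr4 rose with stimulation in both genotypes. Ccr8, the receptor of CCL1, rose from 7.24 ± 0.797 to 42.5 ± 2.13 CPM in WT (SD, n = 4; log2 2.55, SE 0.30, edgeR adjusted p = 1.3e-08) and from 15.6 ± 6.32 to 61.5 ± 22.4 CPM in KO-labelled libraries. Ccr4, the receptor of CCL22, rose from 16.9 ± 0.522 to 75.6 ± 15.9 CPM in WT (log2 2.16, SE 0.34, edgeR adjusted p = 2.5e-06) and from 15.9 ± 2.44 to 59.4 ± 33.2 CPM in KO-labelled libraries. Genes for ligand and receptor thus rose in the same libraries for these 2 pairs. Ccr3, a receptor of CCL5 on eosinophils, fell from 115 ± 27.7 to 32.8 ± 19.2 CPM in WT and from 47 ± 14.4 to 0.253 ± 0.067 CPM in KO-labelled libraries. The stimulated WT libraries held RNA of genes that mark the unstimulated libraries, as given above, and its part in their Ccr3 level was not tested. Ccr1 and Xcr1 averaged at most 1.65 CPM in every group.

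The other 31 chemokine ligands were mostly near absent: 15 had enough counts to be tested, of which 4 rose and 3 fell in WT and 8 rose and 3 fell in KO-labelled cells on stimulation. Of all tested genes 34.5% rose and 38.8% fell in WT, and 39.3% and 42.4% in KO-labelled cells, beside which the list counts given here stand. The median log2 change of the 15 tested ligands was 0.01 and 0.71, against 5.15 and 4.95 for the 6 members, a comparison with no test since the members were chosen for their induction. Cxcl10, a ligand of CXCR3, rose from 2.7 to 5.22 CPM in WT (log2 0.95, SE 0.22, edgeR adjusted p = 3.7e-04). It was 2.99-fold higher in stimulated KO-labelled than in stimulated WT libraries (edgeR adjusted p = 7.3e-07), 1 of the 4 other ligands higher there, against 7.31% of all genes. Of 13 other chemokine receptors tested, 1 rose and 12 fell in WT, among them Cxcr3 from 53.3 to 19.2 CPM (log2 -1.47, SE 0.16, edgeR adjusted p = 2.8e-09). In the signalling chain behind these receptors (20 genes), 5 rose and 14 fell in each genotype, and Gnai2, an inhibitory G protein, fell from 896 to 432 CPM in WT (edgeR adjusted p = 4.7e-11). Of the 16 NFAT and NF-kappaB genes, 7 rose and 5 fell in WT and 7 rose and 6 fell in KO-labelled cells. Nfkb2 rose from 67.5 to 240 CPM in WT (log2 1.83, SE 0.12, edgeR adjusted p = 6.0e-14).

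Over the 8 group means the members followed each other to different degrees, given as a description over 8 points that share libraries and scaling. Ccl3 and Ccl4 were closest, with a Pearson r of 0.988, and Ccl22 followed Ccl4 at 0.975. Ccl5 ran against the other 5, at -0.660 with Ccl3 to -0.854 with Ccl1. Among 9062 genes at 10 CPM or more in their highest group, those most like each member were Ptar1 (r = 0.996) for Ccl1, Slc2a6 (0.989) and Lif (0.985) for Ccl3, and Rbpj (0.997) for Ccl4. Il18r1 (0.997), Maf (0.995) and S100a4 (0.994) were most like Ccl5, and Mrs2, Arl5b and Hk2 (0.998 each) most like Ccl22. For Xcl1 they were Serpine2, Elp6 and Cox11 (0.994 each).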

How the data were processed

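The deposited tables hold whole-number read counts per gene, 1 table per library. The authors made them with Trimmomatic 0.36, HISAT2 2.1.0, SAMtools and HTSeq 0.9.1 on mm10, per the submitters' processing notes, which also name DESeq2 1.18.1 and R 3.4.4. The 5 summary lines were left out. Reads in no feature make up 5.31% to 13.3%, and ambiguous ones 1.1% to 2.32%, of the gene, no-feature and ambiguous counts together. Reads that map more than once number 58.6 to 91.3 per 100 gene counts, so copies of related genes can be missed.

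Counts were scaled by TMM (CPM use these scaled totals), filtered with filterByExpr and tested with edgeR 4.0.16 (quasi-likelihood F test, R 4.3.3) in 1 fit of the 8 groups over 12332 genes. There were 19 comparisons, with p-values adjusted by Benjamini-Hochberg within each and calls at 0.05. Fold changes are fitted ratios. Alternatives were library totals, upper-quartile factors, DESeq2 1.42.0, no filter, fits of the compared groups only, libraries left out, a replicate block (the 8 runs of 4 consecutive library numbers, by limma 3.58.1 between genotypes) and a subtraction, from stimulated WT libraries, of an unstimulated share. The 78 genes behind that subtraction had at least 10 CPM in unstimulated WT and 1 CPM in unstimulated KO-labelled libraries, and at most 2% of that level in the other 5 stimulated groups. Subtraction by run was added after seeing the data. The runs pair libraries in the data: within KO-labelled groups, same-run deviations correlated at 0.19 to 0.69, and in WT at 0.37 to 0.56 between unstimulated and stimulated and at 0.17 to 0.49 between the inhibitors, but not over 0.1 in every run for the other WT pairs. The named genes are the 6 members, their receptors, the genes of each list with the smallest adjusted p in set comparisons, and those most alike over group means. Members, lists and tests were chosen with earlier results of these data known. Part of the receptor results is not reported here. The scripts were tested on simulated data.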

Additional observations from a re-analysis of the deposited data

Results flagged for a closer look

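In 5 of the 48 sets of 4 libraries (6 genes in 8 groups) 1 library lay far from the other 3, with a gap to the nearest of 0.895 to 0.972 of the whole range (Dixon's test at the 95% level); chance alone marks about 1 in 20. All 5 are replicate 2 of KO-labelled stimulated cells. Ccl4 was at 404 CPM with stimulation alone (others 111 to 137 CPM), at 183 CPM with XCT790 (others 71 to 75.1 CPM) and at 282 CPM with CompA (others 94.8 to 112 CPM). Xcl1 was at 220 CPM with stimulation alone (others 53.6 to 58.3 CPM) and at 98 CPM with CompA (others 15.3 to 24 CPM).

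For 2 genes the response differed between genotypes by the interaction test (edgeR adjusted p in the report). Ccl1 responded less in KO-labelled cells to stimulation, at -1.42 on the log2 scale, and more strongly downwards to CompA, at -0.97. The terms of Ccl5 were -1.81 for stimulation, 2.88 for XCT790 and 3.04 for CompA. Of 25 alternatives, the Ccl1 term was called in 13 for stimulation and in 9 for CompA, and each Ccl5 term in 23. All these terms include the stimulated WT libraries, which held RNA of genes that mark the unstimulated ones.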

How the results depend on the processing

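Of 1937 single tests of the 6 genes under an alternative, 1848 kept their side of the threshold and, where called, their direction, 46 lost a call, 36 gained one and 7 reversed in a call. All 6 genes were called for stimulation, and for each inhibitor against unstimulated cells, under every alternative run (the subtraction deepens the Ccl5 fall by construction). The 7 reversals all come from subtracting an estimated unstimulated share from the stimulated WT libraries and all concern Ccl5. The subtraction can only lower Ccl5 in those libraries. By the mean profile the genotype-by-stimulation term of Ccl5 became 0.33. By run, its log2 change became 0.21 for XCT790 in WT, 0.07 for CompA in WT and 2.36 between stimulated genotypes, and its interaction terms became 1.36 for stimulation, -0.30 for XCT790 and -0.14 for CompA.

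Counts of members called moved as follows. For XCT790 in WT, 1 became 2 with the replicate block (Ccl4 at -0.48, edgeR adjusted p = 0.0218) and 0 with either subtraction. For CompA in WT, 1 became 3 with the block (Ccl22 at 0.92, adjusted p = 9.9e-06, and Xcl1 at -1.33, edgeR adjusted p = 1.7e-04), 3 without KO-labelled replicate 2, 2 with either subtraction, 2 in a fit of the compared groups and 1 to 2 leaving out a library. Between the inhibitors in WT, 0 became 4 with the block. For XCT790 in KO-labelled cells, 0 became 3 with the block, 1 with DESeq2 and 0 to 3 leaving out a library. For CompA there, 1 became 2 with the block, 2 without replicate 2 and 1 to 2 leaving out a library. Between the inhibitors there, 1 became 0 in a fit of the compared groups and 0 to 1 leaving out a library. Between unstimulated genotypes 3 became 1 to 3 leaving out a library, and with the block Ccl4 lost its call (1.71, limma adjusted p = 0.125). Between stimulated genotypes 1 became 2 with the block (Ccl1 at -0.56, limma adjusted p = 0.0416), 2 without KO-labelled replicate 2, 2 with subtraction by run and 1 to 2 leaving out a library. The genotype-by-stimulation count of 2 became 1 with no filter, with the block, and with either subtraction, and 1 to 2 leaving out a library. Without KO-labelled replicate 2 that count stayed at 2, with Ccl4 called in place of Ccl1. The genotype-by-XCT790 count went from 1 to 0 with either subtraction. That for CompA went from 2 to 1 with library totals, upper-quartile factors, a fit of the compared groups or no KO-labelled replicate 2, to 0 with either subtraction, and to 1 to 2 leaving out a library. The block changed no other call of a member. Of the other chemokine ligands, 7 called in WT became 11 with no filter and 3 in a fit of the compared groups, and 11 in KO-labelled cells became 5 in such a fit, where the receptors went from 6 to 3.

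Counts over all genes moved more. With the subtraction by mean profile or by run, XCT790 in WT went from 3527 to 833 or 1001, CompA in WT from 4047 to 2664 or 2923, stimulated genotypes from 3112 to 733 or 1074, and the interactions from 4161 to 905 or 1418 (stimulation), 3049 to 0 or 1 (XCT790) and 2661 to 0 or 2 (CompA). In fits of the compared groups, the inhibitors went from 1161 to 2854 in WT, and in KO-labelled cells XCT790 went from 1390 to 258, CompA from 2378 to 860 and the 2 against each other from 400 to 73. Unstimulated genotypes went from 4454 to 2294 in such a fit and to 2060 without WT replicate 1, stimulated genotypes to 1438 and the stimulation interaction to 2394. With the block, KO-labelled counts became 2788, 3821 and 991, and the CompA interaction 4243. In WT the block gave 3884 genes for XCT790, 4595 for CompA and 1694 between the inhibitors. The share of calls that were higher moved from 34.6% to 71.7% between unstimulated genotypes with library totals, which shift the median by 0.21, from 51.1% to 22% for the stimulation interaction (shift -0.24), from 48.1% to 37.5% for stimulation in KO-labelled cells (-0.33), and with upper-quartile factors from 47.1% to 36.4% for stimulation in WT (-0.22). Depth limits Ccl1 and Ccl22 in unstimulated cells, at under 1.1 CPM.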
